A study of Mus musculus with 9 samples.

Results

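The miR-15, miR-16, miR-195 and miR-497 family was followed here as 5 mature mouse microRNAs: mmu-miR-15a-5p, mmu-miR-15b-5p, mmu-miR-16-5p, mmu-miR-195a-5p and mmu-miR-497a-5p, written below without the species prefix. The members were taken by name, with the row of largest total count for each name. The rule used no measured change, but the family was picked with earlier results of these data known. They are 5 of the 1052 miRNAs in the count table, and 4 of the 188 miRNAs with enough counts to be tested. miR-497a-5p was below the filter on low counts. Small RNA was sequenced from lateral cortex cells of embryonic day 14.5 mice (strain C57BL/6), which had been sorted by the fluorescence of endogenous reporters called R and G in the sample titles. The 3 populations were proliferating progenitors (R and G both negative), differentiating progenitors (R positive, G negative) and newborn neurons (G positive), with 3 libraries each. The promoters that drive the reporters are not given in the sources used here, and no treatment or other allele is labelled in any population. The labels do not say whether the 3 libraries of a population came from separate litters or sorts, so the p-values measure the spread between these libraries, which may be technical.

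miRNAs guide Argonaute proteins to messenger RNAs through a short seed near their 5′ end, and miRNAs with the same seed share many predicted targets. The miR-15/16 family is known for targets among the cyclins, cyclin-dependent kinases and other drivers of the cell cycle, and for BCL2, an inhibitor of cell death. Progenitors of the developing cortex divide next to the ventricle, and newborn neurons have left the cell cycle. The question the design puts to this family is whether its clusters, which are transcribed separately, change alike along that lineage.

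The mature sequences are shown first because the members differ mainly in their 3′ parts, which is also what lets a read be assigned to 1 of them. They are RefSeq entries on GRCm38.p6, written 5′ to 3′, with the seed (bases 2 to 8) in capitals.
miR-15a-5p: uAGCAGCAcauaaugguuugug
miR-15b-5p: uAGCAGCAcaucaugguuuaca
miR-16-5p: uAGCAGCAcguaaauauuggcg
miR-195a-5p: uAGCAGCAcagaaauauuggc
miR-497a-5p: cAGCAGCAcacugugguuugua
All 5 carry the same 7-base seed. Among 1679 mature names in the RefSeq table, 10 have this seed, and 9 of those have a row in the count table. Aligned from the 5′ end without gaps, miR-15a-5p and miR-15b-5p match at 18 of 22 positions, and miR-16-5p and miR-195a-5p at 19 of 21. The closest pair outside the 5 is miR-195a-5p and miR-195b, identical over their first 16 bases.

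The family comes from 3 clusters. miR-15b-5p lies at chr3:69009775-69009796 on the plus strand and the miR-16-2 copy of miR-16-5p at chr3:69009918-69009939, with 143 bases between their starts. Both are in an intron of Smc4, which encodes a condensin subunit and runs on the same strand (chr3:69004738-69034623). miR-15a-5p lies at chr14:61632075-61632096 on the minus strand and the miR-16-1 copy at chr14:61631936-61631957, with 139 bases between their starts. Both are in an intron of the non-coding gene Dleu2 (chr14:61602839-61682373, minus strand). miR-497a-5p (chr11:70234730-70234751) and miR-195a-5p (chr11:70235062-70235082) lie on the plus strand with 332 bases between their starts, and no gene other than miRNA genes overlaps them in GENCODE vM21. The 2 copies of mature miR-16-5p are identical, so its count sums both clusters and cannot be assigned to either. The table has 2 rows under that name. They were equal in 2 libraries, and in the others they differed by at most 9 counts.

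Library totals ran from 821155 to 3856484 counts, and miR-9-5p alone took 62.5% to 69.0% of each library. Levels are CPM, counts brought to a library size of 1000000 and scaled by edgeR's TMM factors, which ran from 0.903 to 1.22, with the highest factor in newborn neuron replicate 3. A count of 3, taken as the floor of detection, equals 0.778 to 3.65 CPM depending on the library. The members are 21 or 22 bases long, so their levels were compared without a length correction, although adapter ligation favours some small RNAs over others and levels of different miRNAs are therefore approximate. These are bulk libraries, in which fewer cells with a miRNA and less of it per cell cannot be told apart.

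The members differed widely in mean level over the 9 libraries. miR-16-5p was 38th of 1052 miRNAs at 896 CPM and miR-15b-5p 62nd at 283 CPM. miR-15a-5p was 92nd at 69.6 CPM. The chromosome 11 pair was far lower, with miR-195a-5p 160th at 11.3 CPM and miR-497a-5p 196th at 4.87 CPM. This order, miR-16-5p above miR-15b-5p above miR-15a-5p above both chromosome 11 members, held in each of the 9 libraries.

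**Figure D1:**
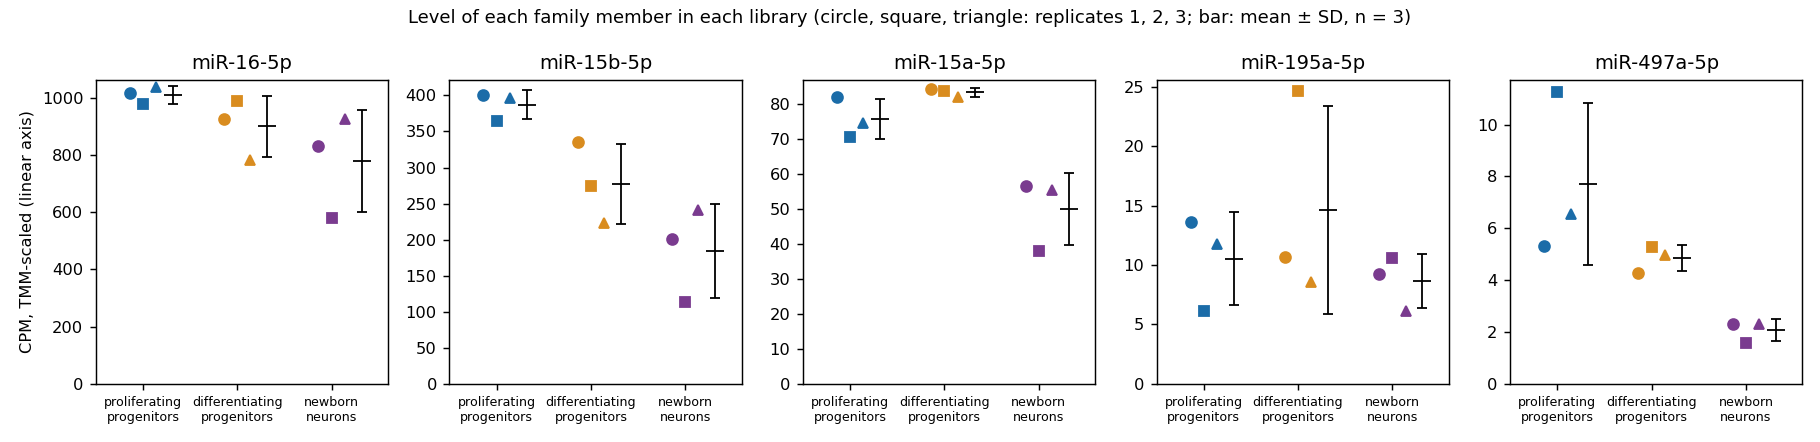
Level of the 5 family members in each library, in TMM-scaled CPM on linear axes from 0, with circles, squares and triangles for replicates 1, 2 and 3 and bars for the mean ± SD of 3 libraries. miR-15b-5p falls from 387 CPM in proliferating progenitors to 185 CPM in newborn neurons, miR-15a-5p is lowest in newborn neurons, and newborn neuron replicate 2 is the lowest of the 9 libraries for miR-16-5p, miR-15b-5p and miR-15a-5p.

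The 2 members that edgeR called between populations were miR-15b-5p and miR-15a-5p, each the partner of a miR-16 copy, and both were lower in newborn neurons. miR-15b-5p was 2.10-fold lower in newborn neurons than in proliferating progenitors, and miR-15a-5p 1.52-fold lower. miR-16-5p, the most abundant member, was 1.30-fold lower and did not pass the test. Whether its change differed from those of miR-15b-5p and miR-15a-5p was not tested. Across the 3 populations jointly, edgeR's quasi-likelihood test called 2 of the 4 tested members, where 58.5% of all tested miRNAs were called. The adjusted p-values of that joint test in edgeR were 0.00276 for miR-15b-5p, 0.0128 for miR-15a-5p, 0.163 for miR-16-5p and 0.315 for miR-195a-5p. Of the tested members, 1 was lower without overlap between libraries between the progenitor populations, the first step (miR-15b-5p, beside 18.6% of all tested miRNAs). Likewise 1 was lower in newborn neurons than in differentiating progenitors, the second step (miR-15a-5p, beside 22.3%), and 3 were over both steps (miR-15a-5p, miR-15b-5p and miR-16-5p, beside 31.9%). Overlap was judged on TMM-scaled CPM. Before that scaling only miR-15a-5p at the second step and miR-15b-5p over both steps stayed without overlap.

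miR-15b-5p had 400, 364 and 397 CPM in proliferating progenitors (528, 356 and 303 counts), 335, 274 and 224 CPM in differentiating progenitors (469, 311 and 314 counts), and 200, 113 and 241 CPM in newborn neurons (778, 214 and 313 counts). Every differentiating progenitor library and every newborn neuron library was below every proliferating progenitor library, while newborn neuron replicate 3 lay above differentiating progenitor replicate 3. Before TMM scaling differentiating progenitor replicate 1 (341 CPM) lay above proliferating progenitor replicate 2 (329 CPM). The TMM-scaled means were 387 ± 20.0, 278 ± 55.8 and 185 ± 65.3 CPM (SD, n = 3 each). Over both steps miR-15b-5p fell, with a log2 change of -1.07, an SE of 0.23 and an adjusted p of 0.000766 in edgeR, in a comparison in which 26.6% of tested miRNAs fell. It fell under every alternative tried, by 0.77 to 1.29 on the log2 scale. Divided between the steps, the log2 change was -0.48 from proliferating to differentiating progenitors (SE 0.23, edgeR adjusted p = 0.183) and -0.59 from differentiating progenitors to newborn neurons (SE 0.23, edgeR adjusted p = 0.0436). The call at the second step was lost in 5 of 9 fits that left out 1 library, with -0.26 (edgeR adjusted p = 0.283) without newborn neuron replicate 2 and -0.42 (edgeR adjusted p = 0.199) without differentiating progenitor replicate 1. The other 3 of these fits kept a change of -0.59 to -0.69 and just missed the threshold in edgeR, with adjusted p = 0.0578 without proliferating progenitor replicate 1, 0.0687 without differentiating progenitor replicate 2 and 0.0545 without newborn neuron replicate 1. The first step in turn only just passed in 1 fit, at -0.51 without newborn neuron replicate 2 (edgeR adjusted p = 0.0499992). So neither step alone carried a call that held in all of these fits.

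miR-15a-5p had 81.9, 70.6 and 74.6 CPM in proliferating progenitors (108, 69 and 57 counts), 84.3, 83.7 and 81.9 CPM in differentiating progenitors (118, 95 and 115 counts), and 56.4, 38.0 and 55.3 CPM in newborn neurons (219, 72 and 72 counts). The progenitor populations overlapped and both stood above all 3 newborn neuron libraries. Without TMM scaling newborn neuron replicate 3 (67.5 CPM) lay above proliferating progenitor replicate 2 (63.7 CPM), but still below all differentiating progenitor libraries. miR-15a-5p fell at the second step, with a log2 change of -0.73, an SE of 0.21 and an adjusted p of 0.00744 in edgeR, and this call was kept whichever library was left out. It was lost in 1 of the 21 alternatives, scaling by total counts without miR-9-5p, at -0.56 (edgeR adjusted p = 0.0565). Against proliferating progenitors its log2 change was -0.60, with an SE of 0.21 and an adjusted p of 0.0215 in edgeR. This fall no longer passed without proliferating progenitor replicate 1 (-0.54, edgeR adjusted p = 0.0923) or newborn neuron replicate 2 (-0.39, edgeR adjusted p = 0.0998). Between the progenitor populations the log2 change was 0.13 (SE 0.21, edgeR adjusted p = 0.714). The test of whether the second step differed from the first gave -0.87 (SE 0.35, edgeR adjusted p = 0.126) for miR-15a-5p. By edgeR 0 of the 4 tested members passed that test, against 7.98% of all tested miRNAs, and 1 of the 4 had an unadjusted p under 0.05. DESeq2 called 0 as well.

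miR-16-5p had 1015, 977 and 1037 CPM in proliferating progenitors (1339, 956 and 792 counts), 926, 990 and 784 CPM in differentiating progenitors (1297, 1124 and 1101 counts), and 832, 578 and 926 CPM in newborn neurons (3230, 1096 and 1205 counts). All newborn neuron libraries were below all proliferating progenitor libraries after TMM scaling, and differentiating progenitors overlapped both. Before that scaling newborn neuron replicate 3 had 1129 CPM, above all proliferating progenitor libraries (883 to 1011 CPM). The log2 change from proliferating progenitors to newborn neurons was -0.38 (SE 0.17, edgeR adjusted p = 0.0682), and the steps gave -0.17 and -0.21 (edgeR adjusted p = 0.536 and 0.335). Without newborn neuron replicate 3 the change over both steps passed, at -0.51 (edgeR adjusted p = 0.0234). Without newborn neuron replicate 2 it was -0.15, and the second step turned to 0.04.

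The chromosome 11 members sat near the limit of counting. miR-195a-5p had 13.7, 6.13 and 11.8 CPM in proliferating progenitors, 10.7, 24.7 and 8.55 CPM in differentiating progenitors, and 9.27, 10.6 and 6.15 CPM in newborn neurons, from 6 to 36 counts a library. All populations overlapped, and differentiating progenitor replicate 2 alone set the higher mean there. The log2 changes were 0.42 (SE 0.43) at the first step, -0.68 (SE 0.39) at the second and -0.26 (SE 0.43) over both, with edgeR adjusted p = 0.538, 0.169 and 0.632. The first turned to -0.14 without that library, and the last to 0.03 without proliferating progenitor replicate 1.

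miR-497a-5p had 5.31, 11.2 and 6.55 CPM in proliferating progenitors, 4.29, 5.29 and 4.98 CPM in differentiating progenitors, and 2.32, 1.58 and 2.31 CPM in newborn neurons. These are 7, 11 and 5, then 6, 6 and 7, then 9, 3 and 3 counts. After TMM scaling the ranges of the 3 populations did not overlap, with the highest in proliferating progenitors and the lowest in newborn neurons. Each pairwise exact permutation test (two-sided) gave p = 0.1, the smallest that 3 libraries against 3 allow. The gap at the first step was only 5.31 against 5.29 CPM. It closed before TMM scaling, with 5.29 CPM in proliferating progenitor replicate 1 and 5.30 CPM in differentiating progenitor replicate 2. Of the 560 miRNAs with a count, those below the filter included, 8.75% were lower without overlap at the first step, 10.2% at the second and 3.04% at both. The values in single libraries are imprecise: the 95% Wilson interval for the 3 counts of newborn neuron replicate 2 ran from 0.543 to 4.69 CPM before TMM scaling, and covers counting error only. In a fit with no filter on low counts, an alternative chosen after seeing the data, the log2 change from proliferating progenitors to newborn neurons was -1.78 (SE 0.52, edgeR adjusted p = 0.00348). In that fit 11.2% of 560 miRNAs were called lower. The call was lost without proliferating progenitor replicate 2 (-1.42, edgeR adjusted p = 0.105) and with DESeq2 (-1.81, adjusted p = 0.0889).

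**Figure D2:**
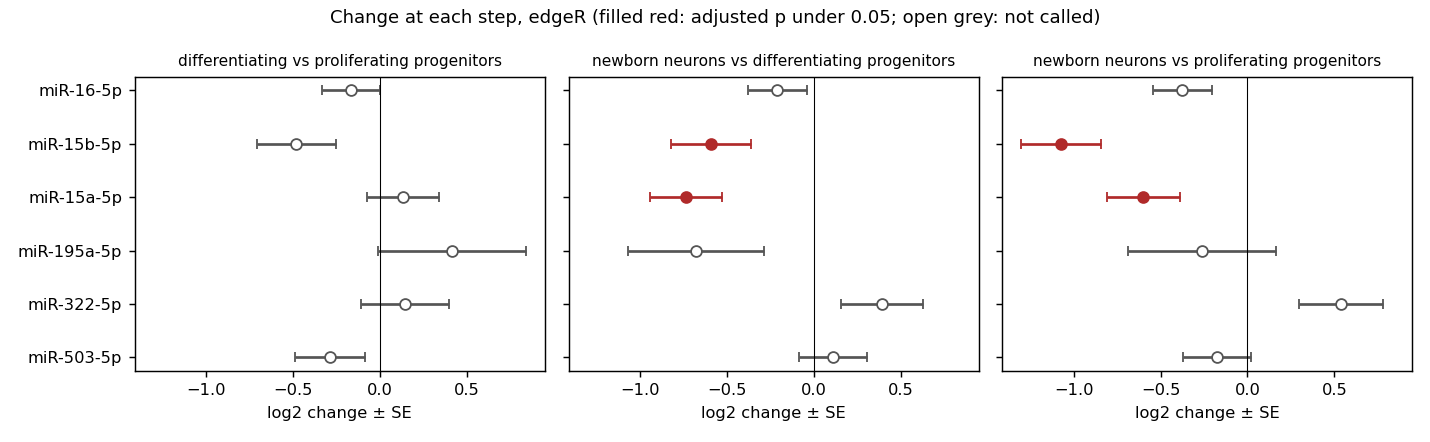
Log2 change ± SE at each step and over both, from edgeR's quasi-likelihood fit of all 9 libraries, for the 4 tested members and for miR-322-5p and miR-503-5p of the X chromosome cluster; filled points have an adjusted p under 0.05. The filled points are miR-15b-5p (-0.59 and -1.07) and miR-15a-5p (-0.73 and -0.60), both in comparisons with newborn neurons.

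Counted over the list, 0 of the 4 tested members were called between the progenitor populations by edgeR, and 0 had an unadjusted p under 0.05, where 7.98% of all tested miRNAs rose and 7.98% fell. DESeq2 also called 0 of them. From differentiating progenitors to newborn neurons 2 of 4 fell and the other two did not pass, beside 22.3% of all tested miRNAs that fell and 23.9% that rose. From proliferating progenitors to newborn neurons 2 of 4 fell and the other two did not pass, beside 26.6% and 29.8%. The median log2 change of the 4 was -0.02, -0.63 and -0.49 in these comparisons, and that of all 188 was 0.08, -0.06 and -0.05. The comparisons share libraries, so their counts are not independent. Scaling by total counts moved the median of all 188 over both steps to 0.13, and the 4 members were still all below 0 there, with a median of -0.29. Of all 188, 41.0% were below 0 with that scaling and 50.5% in the reported fit.

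Ratios of 2 members within a library do not depend on how the library was scaled. They are given as a description, with no test. Per count of miR-16-5p, the proliferating progenitor libraries had 0.394, 0.372 and 0.383 counts of miR-15b-5p, the differentiating progenitor libraries 0.362, 0.277 and 0.285, and the newborn neuron libraries 0.241, 0.195 and 0.260. The 3 ranges did not overlap and stepped down in that order, with means of 0.383 ± 0.0110, 0.308 ± 0.0468 and 0.232 ± 0.0332 (SD, n = 3). The Wilson intervals of the nearest libraries did overlap. They were 0.330 to 0.421 in proliferating progenitor replicate 2 and 0.325 to 0.402 in differentiating progenitor replicate 1. Likewise they were 0.244 to 0.314 in differentiating progenitor replicate 2 and 0.229 to 0.294 in newborn neuron replicate 3. Among the 187 tested miRNAs other than miR-16-5p, 11.8% had a lower ratio to it without overlap at the first step, 8.56% at the second and 16.6% over both. Both held for 7 of 187 (3.74%): miR-15b-5p, miR-142a-5p, miR-221-5p, miR-24-2-5p, miR-27a-5p, miR-378d and miR-450b-5p, a set named after its values were seen.

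For miR-15a-5p the populations stood in another order, which is again a description with no test. The ratio of miR-15a-5p to miR-16-5p was 0.0807, 0.0722 and 0.0720 in the proliferating progenitor libraries. It was 0.0910, 0.0845 and 0.104 in the differentiating progenitor libraries, and 0.0678, 0.0657 and 0.0598 in the newborn neuron libraries. The ranges again did not overlap. The highest was in differentiating progenitors (0.0933 ± 0.0102), followed by proliferating progenitors (0.0749 ± 0.00496) and newborn neurons (0.0644 ± 0.00417). The Wilson intervals of the nearest libraries did overlap, so the gaps lay within counting error. They were 0.0663 to 0.0981 in proliferating progenitor replicate 1 and 0.0686 to 0.104 in differentiating progenitor replicate 2. Likewise they were 0.0551 to 0.0941 in proliferating progenitor replicate 3 and 0.0591 to 0.0777 in newborn neuron replicate 1. A ratio higher without overlap at the first step was found for 25.7% of the 187 miRNAs, and higher at the first and lower at the second for 2 of 187 (1.07%), miR-15a-5p and miR-449c-5p, also named after their values were seen.

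The 2 partners were compared directly as miR-15b-5p per miR-15a-5p, a ratio of mature miRNAs from the chromosome 3 and chromosome 14 clusters and not of the clusters' whole output. It was 4.89, 5.16 and 5.32 in the proliferating, 3.97, 3.27 and 2.73 in the differentiating progenitor libraries, and 3.55, 2.97 and 4.35 in the newborn neuron libraries. Every proliferating progenitor library was above all 6 others, and the later populations overlapped. The nearest libraries had overlapping Wilson intervals, 3.98 to 6.01 in proliferating progenitor replicate 1 and 3.37 to 5.61 in newborn neuron replicate 3. The means were 5.12 ± 0.216, 3.33 ± 0.624 and 3.62 ± 0.690 (SD, n = 3). A lower ratio to miR-15a-5p without overlap was found for 24.1% of the 187 other tested miRNAs at the first step and 13.4% over both. The ratio of miR-497a-5p to miR-195a-5p ran from 0.389 to 1.83 in proliferating progenitors, 0.214 to 0.583 in differentiating progenitors and 0.150 to 0.375 in newborn neurons. Its 3 ranges overlapped from one population to the next, with proliferating progenitors entirely above newborn neurons. It rests on 3 to 36 counts a miRNA. The ratios of miR-195a-5p to miR-15a-5p and to miR-15b-5p overlapped between all populations.

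**Figure D3:**
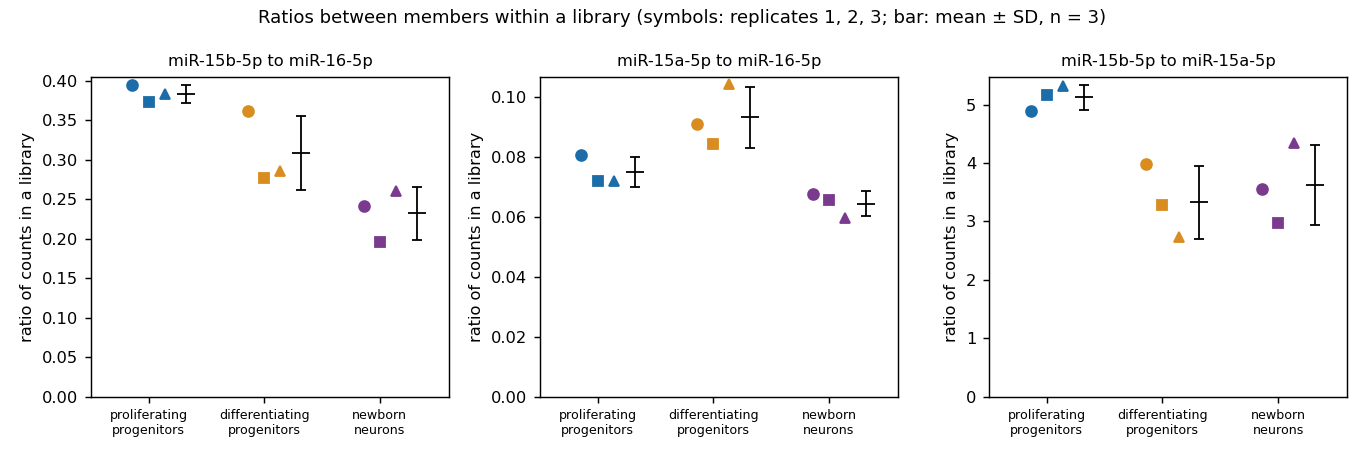
Ratio of the counts of 2 members within each library, on linear axes from 0, with circles, squares and triangles for replicates 1, 2 and 3 and bars for the mean ± SD of 3 libraries. miR-15b-5p per miR-16-5p steps down from 0.383 to 0.308 to 0.232, miR-15a-5p per miR-16-5p is highest in differentiating progenitors (0.0933), and miR-15b-5p per miR-15a-5p is highest in proliferating progenitors (5.12).

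Summed over the 5 members, the family made up 1491 ± 53.5 CPM in proliferating progenitors (1429 to 1527), 1281 ± 154 CPM in differentiating progenitors (1103 to 1378) and 1024 ± 253 CPM in newborn neurons (742 to 1231, SD, n = 3 each). After TMM scaling all libraries of both later populations were below all proliferating progenitor libraries, and the later populations overlapped. That separation did not hold before TMM scaling. Differentiating progenitor replicates 1 and 2 then lay above proliferating progenitor replicate 2, and newborn neuron replicate 3 above proliferating progenitor replicates 2 and 3. The lowest sum was that of newborn neuron replicate 2. Within the sum, miR-16-5p took 67.8% ± 0.732, 70.3% ± 2.0 and 76.3% ± 1.49 in the same order of populations, while miR-15b-5p took 26.0% ± 0.469, 21.6% ± 2.63 and 17.7% ± 2.21 (SD, n = 3). miR-15a-5p took 5.07%, 6.56% and 4.92%, and the chromosome 11 pair 1.22%, 1.5% and 1.13%.

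Of the other carriers of the same seed with a row, only miR-322-5p had counts. In newborn neurons its mean of 55.2 CPM was above the 49.9 CPM of miR-15a-5p. miR-322-5p, the mouse counterpart of human miR-424, lies at chrX:53054306-53054327 beside miR-503-5p at chrX:53054027-53054049, both on the minus strand. They are shown because the first has the family's seed and the second does not.
miR-322-5p: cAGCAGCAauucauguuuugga
miR-503-5p: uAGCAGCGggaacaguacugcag
The mean level of miR-322-5p was 37.2 CPM in proliferating progenitors, 41.7 CPM in differentiating progenitors and 55.2 CPM in newborn neurons, a log2 change of 0.54 over both steps (SE 0.24, edgeR adjusted p = 0.0692). Its sign was opposite to that of the 4 tested members, and its libraries overlapped. miR-503-5p gave -0.18 over both steps (edgeR adjusted p = 0.486). miR-195b, miR-6353 and miR-6419 had 0 counts in all 9 libraries, which allows up to 0.778 to 3.65 CPM. miR-497b, on the strand opposite to miR-497a and with another seed, had 1 to 9 counts a library. miR-6342, the opposite arms of the members, miR-103-3p and miR-107-3p were not analysed here.

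Markers of other cells moved along the same axis. Of 3 erythroid miRNAs, 2 had a row, and they summed to 261 to 354 CPM in proliferating progenitors, 0.881 to 2.86 CPM in differentiating progenitors and 0 to 2.31 CPM in newborn neurons, where miR-144-5p was at 0. The mural list (3 of 6 with a row) summed to 436 to 579, 40.0 to 43.4 and 17.7 to 36.3 CPM. The haematopoietic list (4 of 6) summed to 45.8 to 60.3, 20.0 to 37.0 and 8.44 to 9.01 CPM, with miR-142a-5p and miR-150-5p at 0 in newborn neurons. In both progenitor populations miR-150-5p had only 0 to 1 counts a library. The endothelial miR-126a-5p (1 of 2) ran from 18.4 to 26.2, 11.4 to 12.3 and 5.28 to 12.3 CPM. All 4 lists were thus highest in proliferating progenitors. The TMM-scaled means of miR-15b-5p, miR-16-5p and miR-497a-5p, and of the 5 members summed, were also highest there. The part of the lists in those results was not tested. Between differentiating progenitors and newborn neurons, where miR-15a-5p fell by 0.73, the haematopoietic and mural lists were also lower without overlap, by the sums above. Within the haematopoietic list miR-146a-5p had 3.79 to 12.3 CPM in proliferating progenitors, 9.29 to 18.5 CPM in differentiating progenitors and 0.772 to 1.54 CPM in newborn neurons, a fall at that step in edgeR (adjusted p = 1.8e-05). miR-142a-5p went from 0.712 to 2.14 CPM to 0, but had only 1 to 3 counts a library in differentiating progenitors, at or under the floor of detection. The erythroid list was at or under 2.86 CPM in both populations, and the endothelial ranges overlapped. The part of these markers in the result for miR-15a-5p was not tested either.

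The neuronal list (4 of 6) summed to 1841 to 1968, 1682 to 2051 and 1986 to 2516 CPM, so its ranges overlapped. Within it miR-124-5p, an arm of the neuronal miR-124, ran from 38.0 to 82.8 CPM in proliferating progenitors, 96.1 to 250 CPM in differentiating progenitors and 317 to 503 CPM in newborn neurons, rising without overlap. miR-129-5p of the same list went the other way, also without overlap, from 595 to 765 CPM through 296 to 422 CPM to 178 to 253 CPM, with a log2 change over both steps of -1.69 (edgeR adjusted p = 7.9e-07). The list's other miRNAs also rose over both steps, by a log2 change of 0.51 for miR-218-5p and 1.85 for miR-138-5p (edgeR adjusted p = 0.014 and 0.000556), so 3 of the 4 rose and 1 fell.

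The miRNAs with the most similar profile were found by Pearson's r of log2 CPM over the 9 libraries, which share the 3 populations and the scaling, so the values are descriptions. For miR-15b-5p they were miR-374b-5p (r = 0.947) and miR-126a-5p (r = 0.924), the latter a member of the endothelial list. Their log2 changes over both steps were -0.82 and -1.36 (edgeR adjusted p = 0.00111 and 0.00123). For miR-15a-5p they were miR-224-5p (r = 0.905) and miR-26b-5p (r = 0.898). miR-224-5p had 431, 408 and 175 CPM along the lineage, so it too was lower mainly in newborn neurons. For miR-16-5p they were miR-20a-5p of the miR-17/92 cluster (r = 0.906) and miR-674-5p (r = 0.884). For miR-195a-5p no profile was close, with miR-128-1-5p (r = 0.697) and miR-301a-5p (r = 0.497) first. Among the members themselves r was 0.938 for miR-15b-5p with miR-16-5p, 0.815 for miR-15a-5p with miR-15b-5p, 0.765 for miR-15a-5p with miR-16-5p, and 0.101 to 0.345 for miR-195a-5p with the others.

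**Figure D4:**
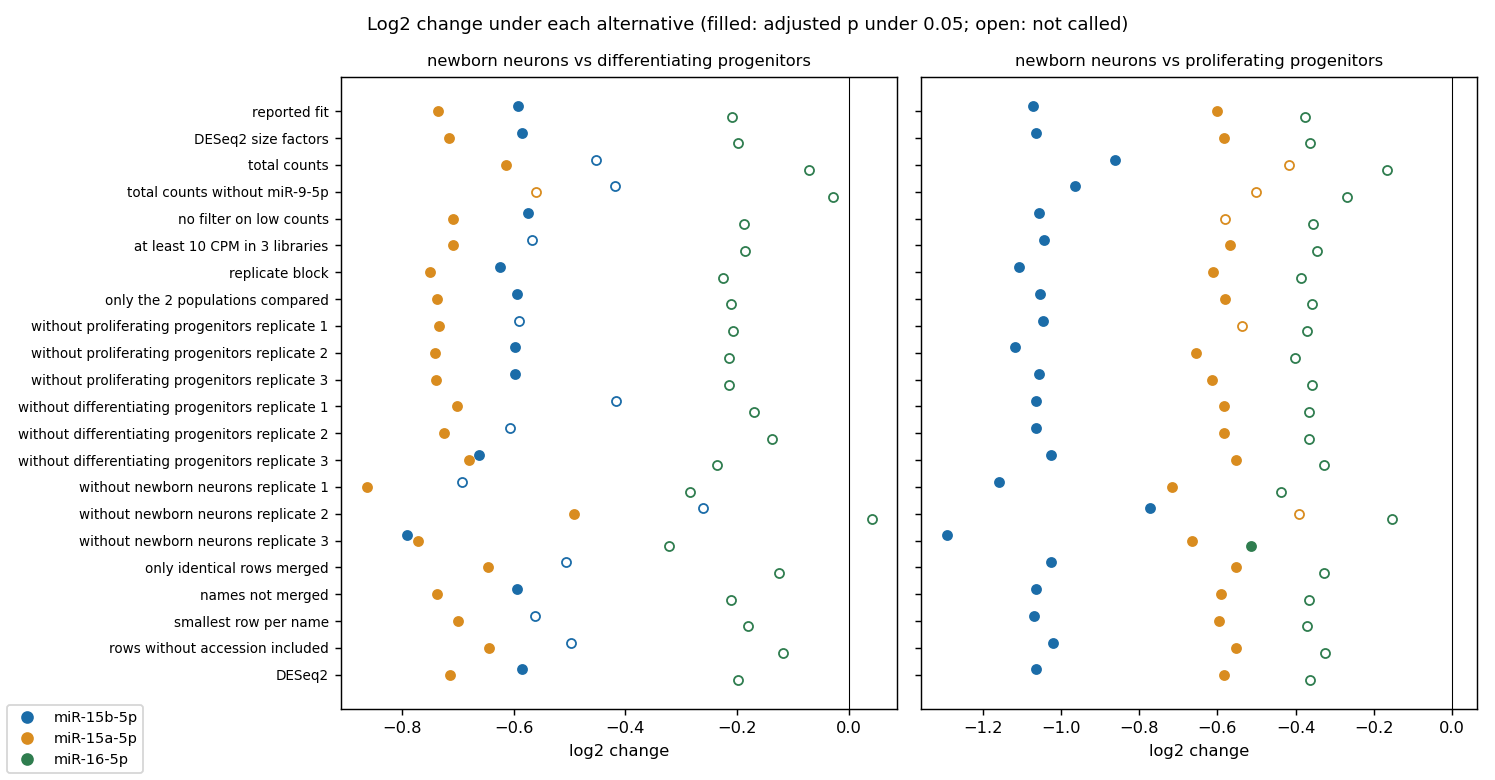
Log2 change of miR-15b-5p, miR-15a-5p and miR-16-5p in newborn neurons against each progenitor population, in the reported fit and under 21 alternatives; filled points have an adjusted p under 0.05. miR-15b-5p stays filled throughout against proliferating progenitors (-1.29 to -0.77) and is often open against differentiating progenitors, where miR-15a-5p is open in 1 alternative only.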

How the data were processed

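The deposited table holds raw read counts per miRNA, made by the authors for 9 libraries prepared with a small RNA ligation kit, per the labels' protocols. The submitters' processing notes name bcl2fastq 1.8.2, DESeq2 and the build mm10. The aligner, counting rule and miRNA release are not given in the sources used here, so how reads shared by similar members were assigned is unknown. Of 1433 rows, 222 without an accession were left out, the largest row was kept per mature name, and names with counts within 2% were merged, leaving 1052 miRNAs. Of these, 560 had a count and 188 passed filterByExpr, with 99.967% of counts. Changes were tested with edgeR 4.0.16 (R 4.3.3: TMM, quasi-likelihood F-test, all 9 libraries in 1 fit) and Benjamini-Hochberg adjustment over the 188, called under 0.05. The script was tested on simulated data. Correlations used log2 CPM with a prior count of 2. Alternatives were DESeq2 1.42.0, other scalings, filters, row rules, a replicate block and leaving out each library. The text names all members, miRNAs with the same or a related seed, the marker lists, and the 2 most similar profiles per tested member. The members and lists were chosen with earlier results of these data known.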

Additional observations from a re-analysis of the deposited data

How the results depend on the processing

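Each change of the 4 tested members was recomputed under 21 alternatives. The fall of miR-15b-5p from proliferating progenitors to newborn neurons passed in all of them. From differentiating progenitors to newborn neurons the number of members called was 2, and became 1 with total counts, a filter at 10 CPM in 3 libraries, only identical rows merged, the smallest row per name or rows without accession included, and 0 with total counts without miR-9-5p or with a 2-fold minimum. For miR-15b-5p the log2 change was then -0.45 (total counts, adjusted p = 0.216), -0.42 (without miR-9-5p, 0.195), -0.57 (10 CPM, 0.0569), -0.51 (identical rows, 0.0891), -0.56 (smallest row, 0.0628) and -0.50 (rows without accession, 0.182), all in edgeR. miR-15a-5p in that comparison gave -0.56 without miR-9-5p. From proliferating progenitors to newborn neurons the number called was 1 with total counts, with total counts without miR-9-5p and with a 2-fold minimum, against 2 as reported. miR-15a-5p there gave -0.42 (adjusted p = 0.154), -0.50 (0.0758) and, with no filter, -0.58 (0.0613) in edgeR. Jointly over the populations the number called was 0 with total counts and 1 without miR-9-5p. It was 3 with no filter on low counts, which brought in miR-497a-5p (edgeR adjusted p = 0.0115). The summed level in proliferating progenitors was 1407 CPM with total counts, against 1491. The causes were not tested. Leaving out 1 library at a time, the members called ranged from 0 to 1, 1 to 2 and 1 to 3 in the 3 comparisons (first step, second step, both), from 1 to 2 jointly, and were 0 for the difference between steps. The log2 changes ranged for miR-15a-5p from 0.09 to 0.20, -0.86 to -0.49 and -0.72 to -0.39, for miR-15b-5p from -0.65 to -0.36, -0.79 to -0.26 and -1.29 to -0.77, for miR-16-5p from -0.23 to -0.09, -0.32 to 0.04 and -0.51 to -0.15, and for miR-195a-5p from -0.14 to 0.71, -0.89 to -0.09 and -0.53 to 0.03. The sign turned in 3 of these fits: miR-16-5p at the second step was 0.042 without newborn neuron replicate 2, miR-195a-5p at the first step -0.14 without differentiating progenitor replicate 2, and miR-195a-5p over both 0.027 without proliferating progenitor replicate 1. Replicate numbers were not shown to pair libraries: same-numbered libraries deviated together with correlations of -0.07 to 0.25, over 0.1 in 4 of 9 pairs. With the replicate number as a block, no call of a member changed, and miR-15b-5p over both steps gave -1.11, miR-15a-5p at the second step -0.75. Depth limits miR-195a-5p and miR-497a-5p, with 3 to 36 counts a library, and left changes of these untestable or imprecise.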
